A study of Homo sapiens with 24 samples.

Results

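PDE3A, PDE3B, PDE4B and PDE4D, phosphodiesterases that break down cyclic AMP, and SLFN12, an RNase whose protein can bind PDE3A, were followed over every array of the series. They are 5 of the 17448 genes measured, and each had 1 probe set annotated to it alone. They were found by symbol in the deposited table. PDE3A was selected on its signal in the DPPA3-induced line over the control line in both cultures, so its values there are a description with no test. The other 4 genes were taken for their relation to PDE3A. The study varied DPPA3, a gene of early germ cells whose protein binds UHRF1 and so acts on the upkeep of DNA methylation, in SW1222, an established human colorectal cancer line, and its title concerns HIF1a, slow cycling and chemoresistance. RNA was measured on 24 arrays in 9 groups. A line with a doxycycline-inducible DPPA3 transgene and its control line were grown as megacolonies embedded in Matrigel, called 3D here, both with 5 µg/ml doxycycline for 5 days, with 3 arrays each. The same lines were grown in 2D, both with the drug for 4 hours, again with 3 arrays each. Any comparison of 3D with 2D here therefore also compares 5 days of drug with 4 hours. In 3D there were also a DPPA3 shRNA and a control shRNA with 3 arrays each, and a scrambled guide RNA and DPPA3 knockout clones C66 and C75 with 2 arrays each. All cultures were kept at 21% oxygen. Each knockout is 1 clone. No arrays of the inducible line without doxycycline were analysed here, so a response to DPPA3 and a standing difference between the lines cannot be told apart. Since no label says that replicate arrays came from separate cultures, the p-values refer to array-to-array spread, which may be technical.

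Cyclic AMP is made by adenylyl cyclases, activates protein kinase A and, through it, CREB, and is removed by phosphodiesterases. PDE3A and PDE3B hydrolyse cyclic AMP and are slowed by cyclic GMP, which they bind with similar affinity; PDE3A is known from heart, platelets, smooth muscle and oocytes, PDE3B from fat and liver. PDE4B and PDE4D are specific for cyclic AMP. Some small molecules that sit in the PDE3A catalytic pocket, such as DNMDP, make PDE3A bind and stabilise SLFN12, which then cleaves a leucine transfer RNA and stalls ribosomes. Cells that hold both proteins die. No such compound was used here.

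The stretches of 250 bases before an annotated RefSeq start (GRCh38.p14) are given for PDE3A, PDE4B and SLFN12. They are examples of a gene that was high with the transgene, one brighter than most genes on every array and one at the dim end. CpG dinucleotides, the usual sites of DNA methylation, are in capitals; methylation was not measured. The PDE3A stretch is chr12:20571829-20572078 (plus strand) and lies 203.5 kb inside the gene, at an internal start. The PDE4B stretch is chr1:65792260-65792509 (plus strand) and that of SLFN12 is chr17:35433175-35433424 (minus strand), both at the gene's first annotated start.
PDE3A: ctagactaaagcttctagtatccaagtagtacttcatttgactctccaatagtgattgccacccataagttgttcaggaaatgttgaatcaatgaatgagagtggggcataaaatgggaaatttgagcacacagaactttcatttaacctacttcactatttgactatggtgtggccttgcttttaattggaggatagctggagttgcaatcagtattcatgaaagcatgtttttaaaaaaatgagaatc
PDE4B: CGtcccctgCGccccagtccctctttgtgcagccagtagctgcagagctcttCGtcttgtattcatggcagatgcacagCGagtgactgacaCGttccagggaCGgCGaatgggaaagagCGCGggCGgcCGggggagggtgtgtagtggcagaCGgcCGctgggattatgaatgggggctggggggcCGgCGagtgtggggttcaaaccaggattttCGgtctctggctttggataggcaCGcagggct
SLFN12: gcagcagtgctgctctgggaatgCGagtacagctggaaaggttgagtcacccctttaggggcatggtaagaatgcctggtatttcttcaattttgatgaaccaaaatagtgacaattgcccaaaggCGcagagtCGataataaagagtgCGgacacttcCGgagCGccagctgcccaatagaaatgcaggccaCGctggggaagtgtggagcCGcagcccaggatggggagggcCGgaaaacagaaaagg

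The PDE3A stretch held 0 CpG and was 36.4% G or C, that of SLFN12 held 9 CpG and that of PDE4B 17. These counts set an internal start of PDE3A against first starts of the others. Further PDE4B starts, not printed here, held 0 to 16 CpG, with 0 at an internal start 120.7 kb inside the gene. The median over 35116 such promoters was 11, and 93.9% of them held at least 1. The full cyclic AMP response element, TGACGTCA, was in 1.65% of the promoters, and its shorter form TGACG, which it contains, in 21.2%. The core of the hypoxia response element, ACGTG, was in 18.5%. A TATA box, searched as TATAAA, was in 10.7%. Both strands were searched, and none of these was found in the stretch of PDE3A or of SLFN12. The stretch of PDE4B held 1 core hypoxia element and none of the others. A match is a description of letters. The arrays give 1 value a gene, so they do not tell which start the PDE3A RNA came from.

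DPPA3 itself was higher with induction in 3D, by 1.50 on the log2 scale (SE 0.31, limma adjusted p = 0.00251), and in 2D by 1.84 (SE 0.31, adjusted p = 0.000475). It was not measurably lower with the shRNA (log2 difference -0.04) or in the clones (-0.16 in C66 and 0.19 in C75), from levels at the dim end of the scale. So the array does not show the loss of DPPA3, and comparisons of the shRNA and the clones are named by their labels. All 11 markers of colorectal epithelium were brighter than 75% of genes. With induction in 3D 0 of the 11 passed by limma and 10 were above 0, with a median log2 difference of 0.17. In 2D KRT20, a keratin of differentiated epithelium, fell by 0.54 (adjusted p = 0.0116) and CDH17, an intestinal cadherin, fell by 0.32 (adjusted p = 0.0482), with a median of -0.01; the calls were lost in 3 and 8 of 12 alternatives. Their part in the results with induction was not tested. Of the markers of other cell types, 0 of 8 for smooth muscle, 0 of 6 for platelets, 0 of 7 for leukocytes and endothelium and 0 of 8 for fibroblasts were that bright. The summed linear signal of the smooth muscle list was 64.9 to 79.7 in the induced 3D arrays and 71.4 to 78.3 in their controls, and that of the platelet list 51.9 to 57.6 against 49.4 to 52.1. In 2D these sums were 70.6 to 84.0 against 71.3 to 75.8 and 52.0 to 57.8 against 48.7 to 53.6. In bulk RNA, fewer cells of a type and less RNA per cell cannot be told apart.

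PDE3A had rank 2 of all 17448 genes by the size of its rise with induction in 3D, and rank 2 in 2D; the rise is what it was selected on. In 3D the log2 signal on the 3 induced arrays was 6.05, 6.58 and 5.69, and on the control arrays 3.52, 3.50 and 3.19. In 2D, after 4 hours of drug, it was 5.54, 5.57 and 5.81 against 2.91, 3.03 and 3.11. The lines were far apart in both cultures, with no overlap. The log2 difference was 2.71 in 3D, a 6.52-fold higher signal, and 2.62 in 2D, a 6.15-fold higher signal, with an SE of 0.16 in both. The difference of these differences, 3D minus 2D, was 0.08 with an SE of 0.22. It compares 5 days in 3D with 4 hours in 2D, so culture and time cannot be told apart. On the 18 arrays without the transgene, 21.8% to 40.1% of genes were dimmer than PDE3A, and with it as many as 86.8% were. At so dim a base the fold can understate the change in RNA.

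Without the transgene PDE3A stayed within 2.81 to 3.52. In the control line it was 3.40 ± 0.19 (SD, n = 3) in 3D and 3.02 ± 0.10 (SD, n = 3) in 2D, a difference of 0.39 with no test, since these arrays entered its choice. With the control shRNA it read 3.03, 3.12 and 3.16, and with the DPPA3 shRNA 3.19, 3.18 and 3.15, so the groups overlapped and the log2 difference was 0.07 (95% interval -0.25 to 0.39, limma adjusted p = 0.9996). With the scrambled guide it read 3.47 and 2.93, against 2.81 and 2.97 in C66 and 2.81 and 2.84 in C75. C75 did not overlap its control and C66 did, but neither difference passed the test: -0.31 in C66 (interval -0.71 to 0.08, adjusted p = 0.696) and -0.38 in C75 (interval -0.77 to 0.02, adjusted p = 0.650). Both clones are set against the same scrambled-guide arrays. Between the clones the difference was -0.06 (adjusted p = 0.989). Of all genes, 0.086% passed with the shRNA (0.0344% higher, 0.0516% lower), 1.43% in C66 (0.871% higher, 0.562% lower), 0.619% in C75 (0.138% higher, 0.481% lower) and 2.9% between the clones (0.923% higher, 1.98% lower). Of the 5 genes, 0 passed in any of these by limma. The groups of arrays did not overlap for 10.8%, 42.9%, 40.5% and 41.8% of genes. At an unadjusted p under 0.05 by limma, 917, 1666, 1417 and 1769 genes differed in these 4 comparisons, and of the 5 genes PDE4D did, between the clones.

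**Figure D1:**
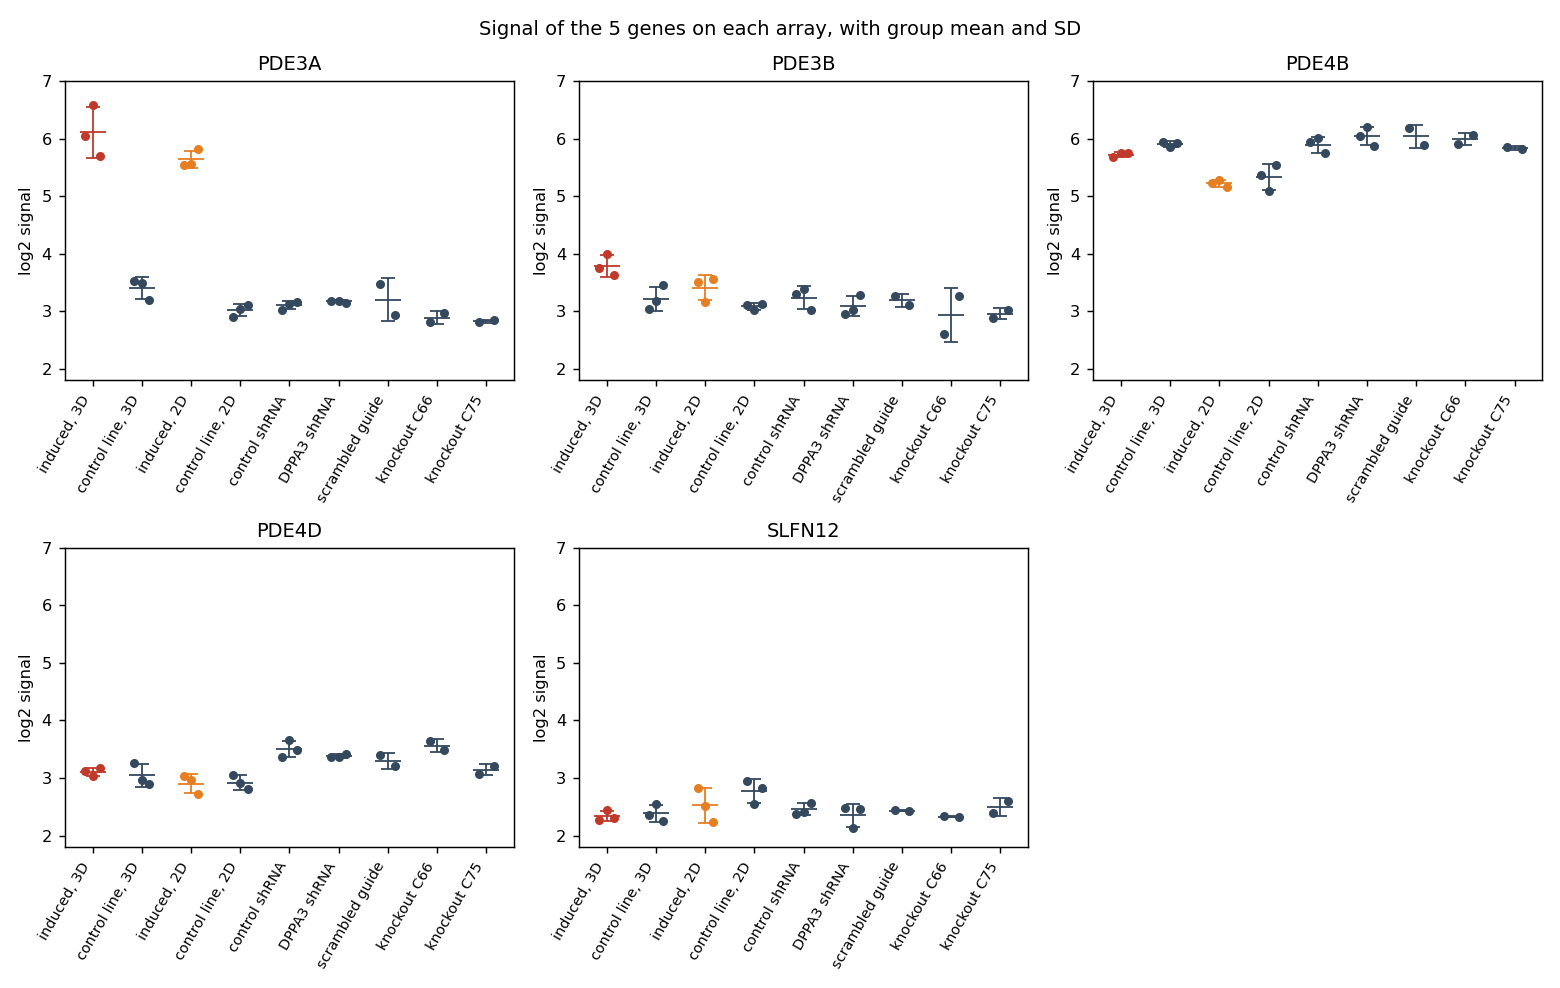
Log2 signal of PDE3A, PDE3B, PDE4B, PDE4D and SLFN12 on each array (points), with group mean and SD (bars), over the 9 groups. PDE3A in the induced line lies between 5.54 and 6.58, above every other PDE3A point, the highest of which is 3.52; PDE4B lies above 5 on every array and SLFN12 below 3.

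PDE3B, the other cyclic GMP-inhibited phosphodiesterase, also rose in the induced line in 3D. Its log2 signal was 3.75, 4.00 and 3.62 with induction and 3.03, 3.17 and 3.45 in the control line. The groups did not overlap, and the log2 difference was 0.57 (SE 0.15, limma adjusted p = 0.0220), a 1.49-fold higher signal. Of all genes, 5.7% passed in this comparison, 2.93% higher and 2.77% lower. Groups of arrays did not overlap for 18.3%. PDE3B and PDE4B were among them, and so was PDE3A, from which nothing is read since it was selected on these arrays. The call rested on single arrays. Without induced replicate 1 the difference was 0.59 (adjusted p = 0.0548) and without induced replicate 2 it was 0.47 (adjusted p = 0.105). Leaving out replicate 1 of the control line gave 0.48 (adjusted p = 0.118), and leaving out its replicate 2 gave 0.55 (adjusted p = 0.0752). The 2D arrays held 3.51, 3.16 and 3.56 with induction and 3.11, 3.02 and 3.12 in the control line, without overlap, but the difference of 0.33 did not pass (interval 0.02 to 0.64, adjusted p = 0.337). In 2D 3.13% of genes passed, 1.87% higher and 1.26% lower, and groups did not overlap for 16.7%. The difference between cultures, 3D minus 2D, was 0.25 (interval -0.20 to 0.69, adjusted p = 0.806), where 0.241% of genes passed (0.103% higher, 0.138% lower). PDE3B was not shown to differ more in one culture than in the other.

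Many genes around PDE3B on chromosome 11 were also higher with induction. Of the 30 measured genes nearest to it in the gene order of RefSeq, 15 a side, 11 passed higher with induction in 3D. In 2D 14 of 30 did, with 0 lower in either culture. Of all genes, 2.93% passed higher in 3D and 1.87% in 2D. The median log2 difference of all genes was -0.01 in 3D and 0.00 in 2D. For the 30 genes it was 0.27 and 0.33. PDE3B lay inside the range of these genes, which was -0.08 to 0.996 in 3D and -0.22 to 1.28 in 2D. Of the 10 nearest genes, 5 a side, 6 were above 0 in 3D and 7 in 2D, and 4 passed higher in each. Their median was 0.13 in 3D and 0.16 in 2D. CYP2R1, a vitamin D hydroxylase and the next measured neighbour of PDE3B on one side, was higher by 0.996 in 3D, the top of that range, and 0.92 in 2D. PSMA1, a proteasome subunit on the other side, was higher by 0.82 and 0.90. Whether the number of gene copies or the local chromatin differs between the lines was not measured, and the part of this region in the PDE3B result was not tested.

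PDE4B gave the brightest signal of the 5 outside the induced line, between 5.09 and 6.20, and was higher in 3D than in 2D. The probe sets of different genes cannot be compared in RNA amount, so this ranks signals only. In the control line it read 5.95, 5.85 and 5.93 in 3D and 5.36, 5.09 and 5.55 in 2D, without overlap, a log2 difference of 0.58 (SE 0.11, limma adjusted p = 0.00213). Of all genes, 7.8% passed in that comparison, 4.92% higher and 2.88% lower, and 23.2% did not overlap, PDE4B and SLFN12 among them; PDE3A did not overlap either, on arrays that entered its choice. The induced line read 5.68, 5.74 and 5.74 in 3D and 5.24, 5.28 and 5.16 in 2D, again without overlap. Induction itself gave no call, with a log2 difference of -0.19 in 3D (interval -0.42 to 0.05, adjusted p = 0.474), though the arrays did not overlap, and -0.11 in 2D (interval -0.34 to 0.13, adjusted p = 0.770). With the shRNA the difference was 0.14 (interval -0.09 to 0.38), in C66 -0.05 (interval -0.34 to 0.23) and in C75 -0.21 (interval -0.49 to 0.08), none past the test.

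PDE4D, which restrains cyclic AMP in many cell types, was dim, between 2.72 and 3.65, and gave no call anywhere. With induction it read 3.12, 3.04 and 3.17 in 3D against 3.27, 2.96 and 2.90, a log2 difference of 0.06 (interval -0.17 to 0.29). In 2D the difference was -0.02 (interval -0.25 to 0.21). Its widest difference was between the clones: C66 read 3.64 and 3.48 and C75 3.08 and 3.21, a difference of -0.42 for C75 over C66 (interval -0.70 to -0.13), with an unadjusted p of 0.00557 and an adjusted p of 0.131. C66 differed from its control by 0.27 (interval -0.02 to 0.55) and C75 by -0.15 (interval -0.43 to 0.13). The C66 arrays did not overlap the control for 42.9% of all genes, PDE4D and SLFN12 among them. For C75 the share was 40.5%, with PDE3A, PDE3B and PDE4B among them. Between the clones it was 41.8%, with PDE4B, PDE4D and SLFN12 among them.

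SLFN12 was the dimmest of the 5, between 2.13 and 2.95, with 2.28% to 25.0% of genes dimmer. The deposited values give no detection call, so a signal this dim cannot be told apart from background. In 3D, where PDE3A was high, it read 2.26, 2.44 and 2.31 with induction against 2.35, 2.55 and 2.26, a log2 difference of -0.05 (interval -0.32 to 0.23, limma adjusted p = 0.942). The 2D arrays held 2.83, 2.51 and 2.23 against 2.95, 2.55 and 2.82, a difference of -0.25 (interval -0.53 to 0.02, adjusted p = 0.427). In the control line its difference of 3D over 2D was -0.39 (interval -0.67 to -0.12), with an adjusted p of 0.0719 and no overlap. It passed in 3 alternatives, for example at -0.44 after centring each array on its median (adjusted p = 0.0392). The shRNA gave -0.10 (interval -0.38 to 0.17), C66 -0.11 (interval -0.44 to 0.23) and C75 0.07 (interval -0.27 to 0.40). The other Schlafen genes, 5 measured of 5 listed, had 0 calls by limma in every comparison, and SLFN11, which acts on stalled replication forks, lay within 2.18 to 2.90 on all arrays.

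**Figure D2:**
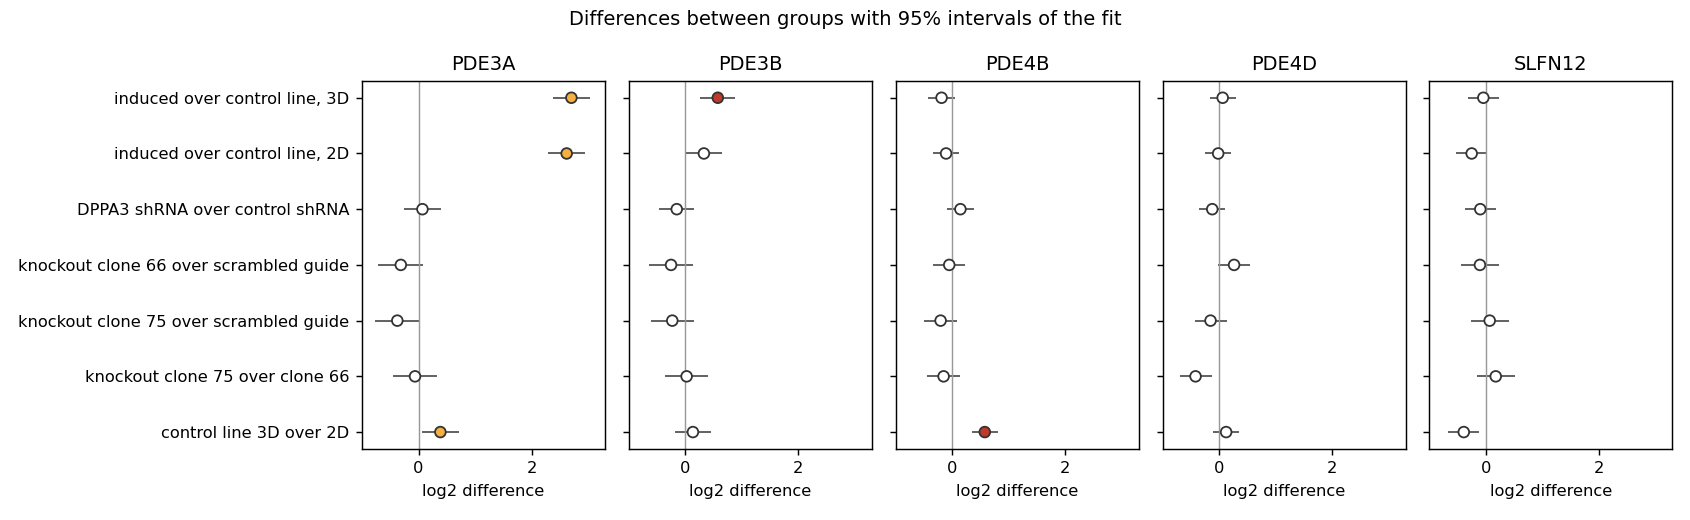
Log2 difference (horizontal axis) of each gene in 7 comparisons, with 95% intervals of the limma fit; red points passed at an adjusted p under 0.05, white points did not, and amber points belong to PDE3A where its choice used those arrays and carry no test. PDE3B in 3D, at 0.57, and PDE4B between cultures of the control line, at 0.58, are the red points.

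The order of the levels differed from gene to gene. PDE3A and PDE3B were highest in the induced line in 3D and next in the induced line in 2D. Both were lowest in the knockout clones, where neither passed against the scrambled guide. PDE3B differed there by -0.25 in C66 (limma adjusted p = 0.786) and -0.23 in C75 (adjusted p = 0.888), and by -0.15 with the shRNA, which did not pass either. For PDE3A the ranges of the first and the next group overlapped. Those of the second and the third, the control line in 3D, did not (gap 2.24). For PDE3B the first 2 groups did not overlap (gap 0.38), and below them neighbouring groups overlapped as far as the 2D control line. PDE4B was highest with the DPPA3 shRNA (6.04 ± 0.16, SD, n = 3), and lowest in the 2D groups. PDE4D was highest in C66 and lowest in the induced line in 2D, and no neighbours in its order had separate ranges. SLFN12 was highest in the control line in 2D, at 2.78 ± 0.20 (SD, n = 3), again with neighbours overlapping throughout. These orders span separate experiments, which the fit does not test against each other.

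The rest of the pathway was looked at through 11 lists of 131 genes, of which 119 were measured. With induction in 3D 4 of 119 were higher and 0 lower, 3.36% against 5.7% of all genes, and in 2D 1 was higher and 0 lower, 0.840% against 3.13%. Among the other phosphodiesterases, 19 of 20 were measured and 1 was higher in each culture, PDE6D, by 0.49 in 3D (adjusted p = 0.0194) and 0.58 in 2D (adjusted p = 0.00769); its product is known as a carrier of prenylated proteins, not a cyclic nucleotide hydrolase. The calls of PDE6D were lost without some single arrays, induced replicate 2 or control replicate 1 or 3 in 3D and induced replicate 2 or 3 or control replicate 1 in 2D, where the adjusted p reached 0.0833 and 0.0779. The median of that list was 0.01 in 3D and -0.07 in 2D. PDE4A, close kin of PDE4B and PDE4D, differed by 0.00 in both, and PDE5A, which hydrolyses cyclic GMP, by 0.01 in 3D and -0.03 in 2D. The 16 genes of cyclic AMP synthesis, the 11 of protein kinase A, the 12 anchoring proteins, the 8 measured other effectors and the 7 measured CREB factors had 0 calls with induction in either culture.

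The other calls with induction in 3D were in 3 lists. PPARGC1A, a coactivator of mitochondrial genes and a known CREB target, read 5.76, 5.96 and 5.74 against 4.94, 4.90 and 4.81, a log2 difference of 0.94 (adjusted p = 2.83e-06). It was the single call among 12 measured CREB targets, whose median was 0.09, and in 2D it differed by 0.19 (adjusted p = 0.484). GUCY2C, the gut receptor that makes cyclic GMP when guanylin binds, read 7.54, 7.39 and 7.68 against 7.13, 7.07 and 6.85, a difference of 0.52 (adjusted p = 0.00180), and its 2D difference was 0.08. For GUCY2C too the control line was the lowest 3D group. Its arrays lay within 7.38 to 7.46 with the control shRNA and 7.47 to 7.54 with the scrambled guide, overlapping the induced 3D arrays. With the DPPA3 shRNA they lay within 7.19 to 7.38, below induction. Separate experiments were not tested against each other. Cyclic GMP slows the enzyme PDE3A encodes, but a link between GUCY2C and PDE3A was not tested. GTPBP2, which helps rescue stalled ribosomes, was 0.60 higher (adjusted p = 0.00450); in 2D its difference was 0.36 (adjusted p = 0.166). It was the single call among 9 measured genes of the stalled-ribosome list.

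With the shRNA and in C75 0 of the 119 pathway genes passed, against 0.086% and 0.619% of all genes. In C66 3 were higher and 1 lower, 3.36% against 1.43%. GUCA2A, which encodes guanylin, was 1.31 higher (adjusted p = 6.14e-05), with PCK1, a gluconeogenesis enzyme, 0.54 higher and ABCC5, a cyclic nucleotide exporter, 0.63 higher. GNAI1, an inhibitory G protein subunit, fell by 1.08 (adjusted p = 0.00235). The GNAI1 signal was 3.37 and 3.25 in C66, against 4.30 and 4.49 in its control and 4.26 and 4.20 in C75. Of these 4 calls only that of GUCA2A held whichever single array was left out; the adjusted p reached 0.0685 for GNAI1 (without control replicate 2 or C66 replicate 2), 0.618 for PCK1 (without control replicate 1 or either C66 array) and 0.173 for ABCC5 (without any 1 of the 4 arrays). Markers outside the pathway moved in C66 as well: KRT20 was 0.61 higher and CD68, a lysosomal protein of macrophages that many cells hold, 0.71 higher. Each was the only call of its marker list. Of the 7 measured leukocyte and endothelial markers 2 were above 0, with a median of -0.04. Of the 11 epithelial markers 8 were above 0, with a median of 0.17. The KRT20 call was lost in 4 of 10 alternatives (adjusted p up to 0.510, without either control array or C66 replicate 1 among them), and that of CD68 in 3 of 10 (adjusted p up to 0.218, without either control array or C66 replicate 2). Their part in these differences was not tested. Between 3D and 2D in the control line, 6 pathway genes were higher and 1 lower, 5.88% against 7.8%. There too 5 days of drug in 3D stood against 4 hours in 2D, so culture and time cannot be told apart. CFTR, the chloride channel that protein kinase A opens, was 0.48 higher (adjusted p = 0.00192), AKAP9, an anchor of that kinase, 1.17 higher, NEMF, which acts on stalled ribosomes, 0.55 and GTPBP2 0.67 higher. PRKACB, a catalytic subunit of protein kinase A, was 0.46 higher and HCN3, an ion channel that binds cyclic AMP, 0.57 higher. PRKAR2A, a regulatory subunit of that kinase, fell by 0.41 (adjusted p = 0.0198). The calls of PRKACB, HCN3 and PRKAR2A were lost in 5, 7 and 3 of 12 alternatives, among them without control 3D replicate 2 for each, and the adjusted p reached 0.138, 0.257 and 0.0605.

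Genes next to PDE3A on chromosome 12 were higher on 1 side only in the 3D comparison. The next 3 measured genes after it are SLCO1C1, SLCO1B3 and SLCO1B1, which encode organic anion transporters. SLCO1C1 read 5.10, 5.22 and 5.02 with induction in 3D against 3.93, 3.74 and 3.38, a log2 difference of 1.43 (adjusted p = 7.56e-08). SLCO1B3 was 0.79 higher (adjusted p = 0.000116) and SLCO1B1 0.71 higher (adjusted p = 0.00164). SLCO1B3 read 7.91, 7.98 and 8.10 with induction, 7.67, 7.98 and 7.95 with the control shRNA and 8.23 and 8.23 with the scrambled guide. For SLCO1B1 these were 5.35, 5.35 and 5.37, then 5.33, 5.76 and 5.46, then 5.44 and 5.26. For both genes the control line was the lowest 3D group. SLCO1C1 read 3.66, 3.74 and 3.66 with the control shRNA, below induction. Separate experiments were not tested against each other. None of the 5 genes before PDE3A passed: PIK3C2G, PLCZ1, CAPZA3, PLEKHA5 and AEBP2 had log2 differences between -0.13 and 0.07 in 3D. Of the 30 nearest genes, 15 a side, 3 passed in 3D and 1 in 2D, where 5.7% and 3.13% of all genes passed. SLCO1A2 and IAPP, beyond the 3 transporters, differed by 0.15 and 0.11 in 3D and did not pass. In 2D SLCO1C1 was 0.49 higher (adjusted p = 0.0353), SLCO1B3 0.24 (adjusted p = 0.400), and SLCO1B1 -0.15 (adjusted p = 0.718). The change with induction was larger in 3D than in 2D for SLCO1C1, by 0.94 (adjusted p = 0.0256), a call lost under 8 of 17 alternatives (adjusted p up to 0.127). SLCO1B3 and SLCO1B1 were also higher in the control line in 3D than in 2D, by 0.76 and 1.20. The 2D call of SLCO1C1 was lost without induced replicate 1 or 3 or control replicate 1 (adjusted p up to 0.226). The 3 are close paralogs, so the probes of one can read another's RNA; the array values do not separate this.

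**Figure D3:**
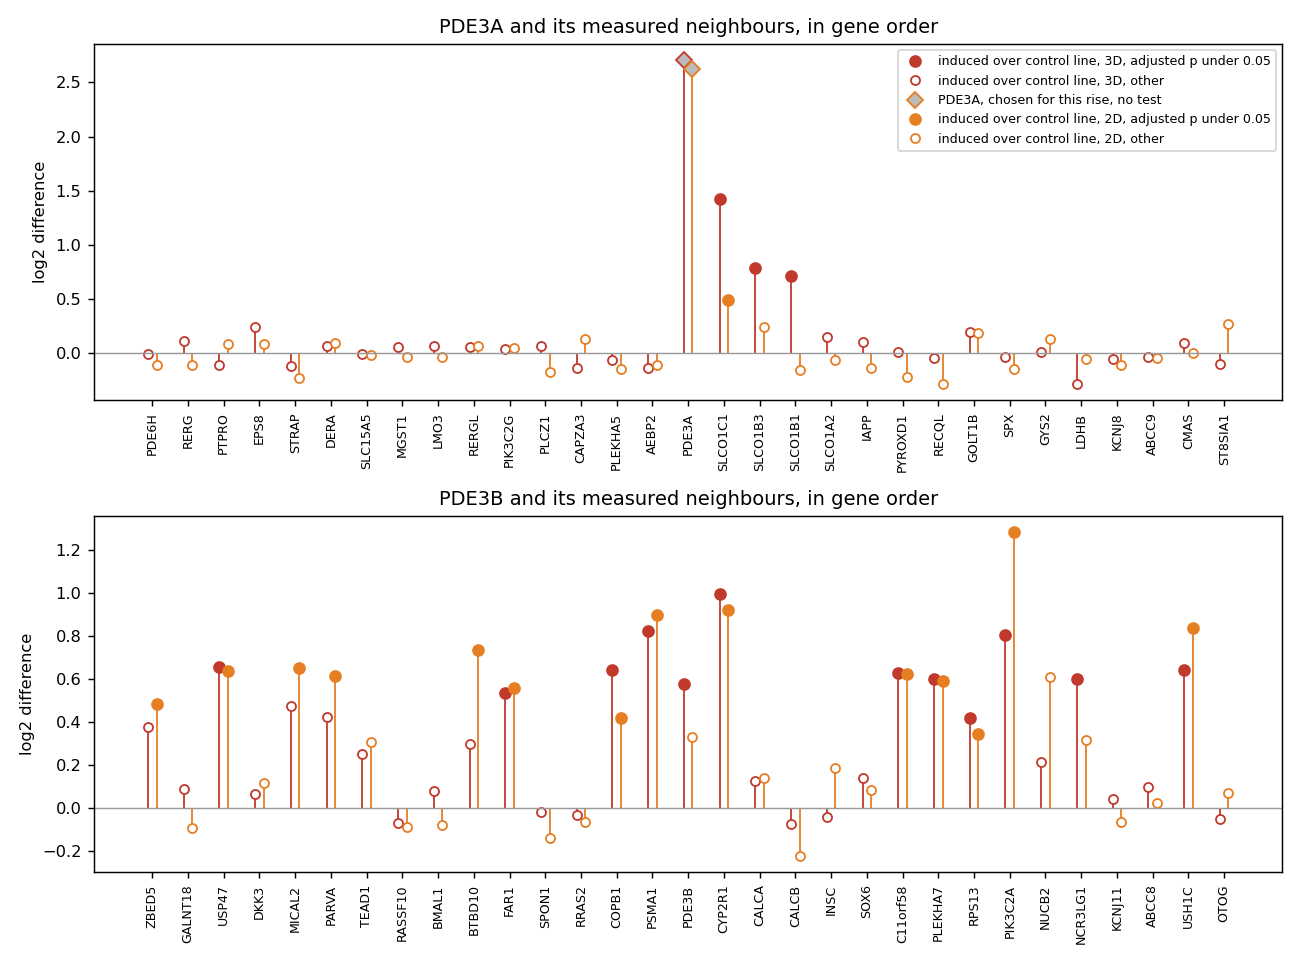
Log2 difference (vertical axis) with induction in 3D (red) and in 2D (orange) for the 15 measured genes on each side of PDE3A (upper) and of PDE3B (lower), in gene order; filled points passed at an adjusted p under 0.05, and diamonds mark PDE3A, which carries no test. Next to PDE3A the 3 SLCO1 genes on its right passed higher in 3D, against the control line. Around PDE3B 11 of 30 genes passed higher in 3D and 14 of 30 in 2D, against 2.93% and 1.87% of all genes.

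**Figure D4:**
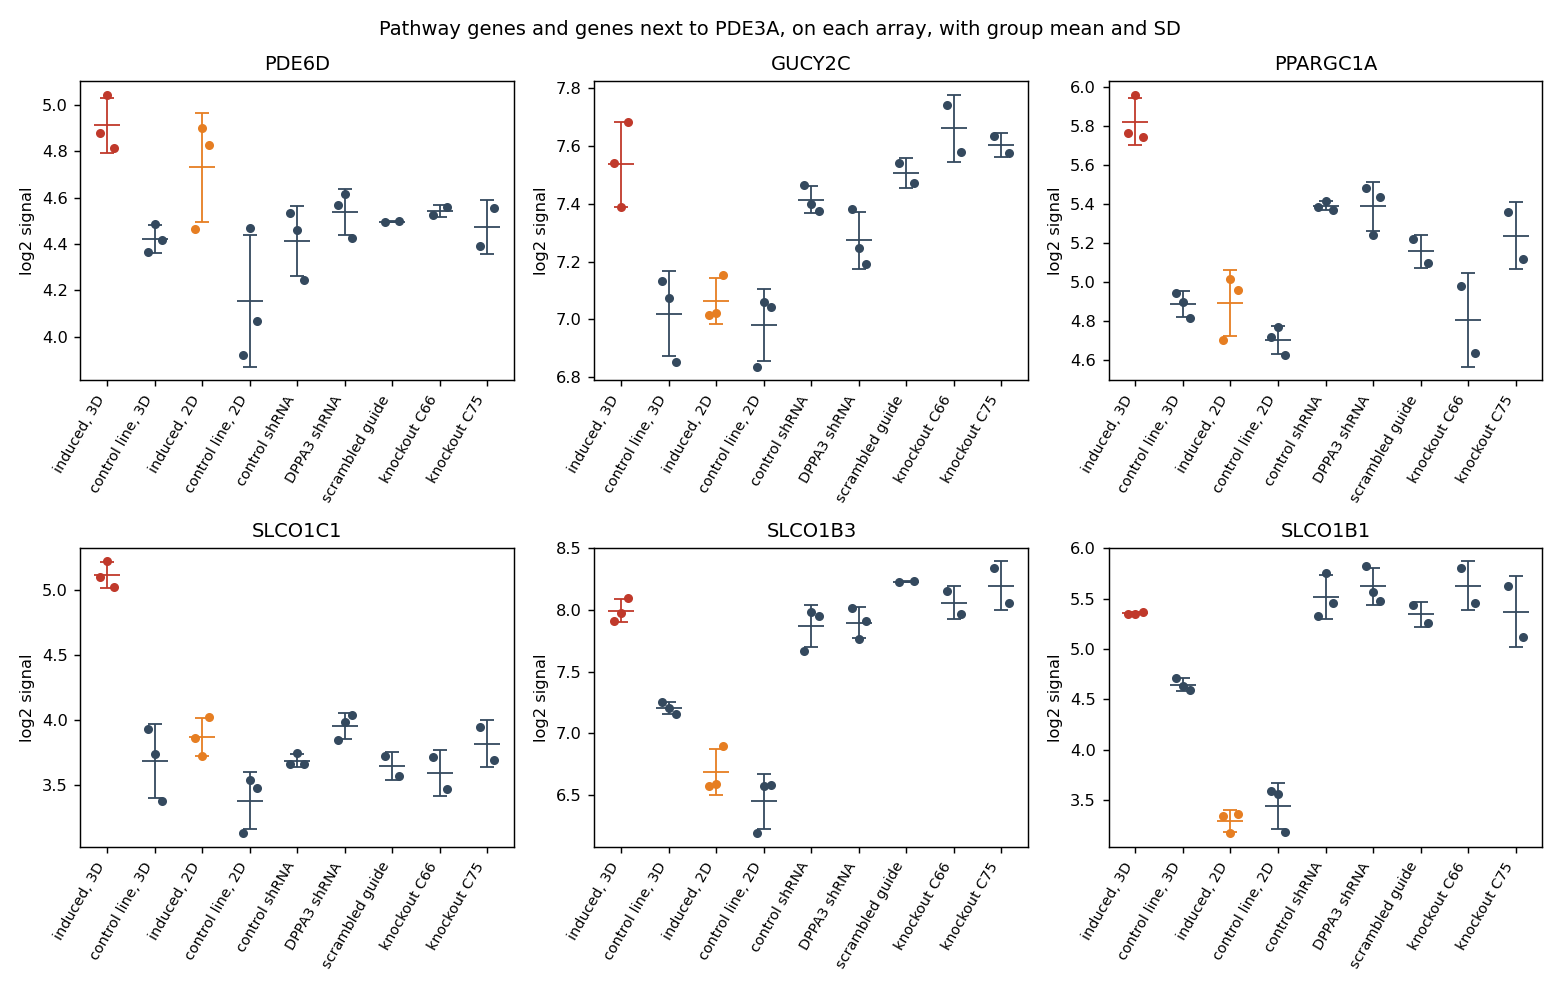
Log2 signal on each array (points), with group mean and SD (bars), of PDE6D, GUCY2C and PPARGC1A and of the 3 SLCO1 genes next to PDE3A, over the 9 groups; the vertical axes differ and do not start at 0. GUCY2C and PPARGC1A in the induced line lie above the control line in 3D, and SLCO1B1 is below 3.6 in both 2D groups. For GUCY2C, SLCO1B3 and SLCO1B1 the control shRNA arrays overlap the induced 3D arrays.

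Among genes above the median level, TMEM9B on chromosome 11 was most like PDE3A over the 24 arrays, with a Pearson r of 0.93, followed by GOLPH3 (r = 0.93), RICTOR (r = 0.92) and CMBL (r = 0.91) on chromosome 5, FXYD5 (r = 0.91) and LSAMP (r = 0.91). The arrays share the contrast of induced and other lines, which sets most of these values. Over the 12 arrays of the shRNA and knockout experiments r was weaker, between -0.50 for LSAMP and 0.55 for GOLPH3. Most opposed were CSTF2T (r = -0.91), SLC35E1 (r = -0.90), BRD1 (r = -0.89) and SUGP2 (r = -0.89). Their own differences were smaller than that of PDE3A: TMEM9B, a lysosomal membrane protein, was 0.78 higher in 3D and 0.58 in 2D, and RICTOR, a subunit of a complex of the kinase mTOR, 0.80 in both. LSAMP, a neuronal adhesion protein, was 1.88 higher in 3D and 1.16 in 2D, and 0.81 higher in C66 (a call lost without control replicate 2 or C66 replicate 1), where PDE3A differed by -0.31. These are descriptions, with no test of the correlations.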

How the data were processed

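RNA of 24 SW1222 arrays was measured. The authors deposited log2 expression values. Partek 6.6 and RMA are named in the submitters' processing notes. RMA removes background, gives all arrays 1 distribution and combines the probes of a set, so differences at dim signals can be understated. Array medians ran from 4.01 to 4.12 and replicates correlated at r = 0.987 to 0.994 across genes. Number of arrays limits precision: the median SE was 0.12 for 3 against 3 and 0.15 for 2 against 2. No source used here names the genome build behind the probes. Of 20276 probe sets, 18062 carried 1 symbol, 1288 several and 926 none; the brightest single-symbol set stood for a gene.

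One linear model with a coefficient for each of 9 groups was fitted in limma 3.58.1 (R 4.3.3), 2-sided, with Benjamini-Hochberg adjustment over 17448 genes and a threshold of 0.05. Alternatives were the replicate number as a block, variance from 1 experiment, a filter on dim genes, trend and robust moderation, median centring, the mean of probe sets and leaving out each array. The method was tested on simulated data. The members and lists were chosen with earlier results of these data known. Named were the members, up to 3 passing genes per list, comparison and direction with the smallest p, the 6 most and 4 least like PDE3A, its 5 neighbours a side, DPPA3, GUCY2C, CFTR, SLFN11, PDE4A and PDE5A; CYP2R1 and PSMA1, next to PDE3B, were named after their values were seen. 1 further gene that the rule lists is not reported here. Replicate numbers did not pair the arrays.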

Additional observations from a re-analysis of the deposited data

Results flagged for a closer look

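The change with induction differed between 3D and 2D for 3 genes, by the test of that difference. The log2 difference in 3D exceeded that in 2D by 0.748 for PPARGC1A and by 0.938 for the PDE3A neighbour SLCO1C1. For KRT20 it was 0.39 in 3D, not past the test, and fell by 0.54 in 2D, which passed, so the signs were opposite and 3D minus 2D was 0.934. These calls were lost in 11 of 18 alternatives for PPARGC1A, 8 of 17 for SLCO1C1 and 6 of 18 for KRT20. Culture and time differ together in this contrast and cannot be told apart.

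Of the 119 pathway genes, 5 differed between the knockout clones, 1 higher and 4 lower in C75, 4.20% against 2.9% of all genes. These and 3 other genes, named partly because they passed, are given as C75 minus C66. GNAI1 was higher in C75 by 0.919. Lower in C75 were PKIB, an inhibitor of protein kinase A, at -0.570, PRKACB, a catalytic subunit of that kinase, at -0.596, PCK1 at -0.528, GUCA2A at -1.48, KRT20 at -0.966, CD68 at -1.08 and PLEKHA5, a gene near PDE3A, at -0.478. KRT20 and CD68 were the only calls of their marker lists, most of which went the other way. Of 11 epithelial markers 6 were above 0 (median 0.04), and of 7 leukocyte and endothelial markers 6 were (median 0.03). Each clone is 1 isolate with 2 arrays, and many calls rested on single arrays: they were lost in 7 of 10 alternatives for PLEKHA5 (adjusted p up to 0.331), 5 of 9 for PCK1 (up to 0.220), 3 of 10 for PRKACB (up to 0.398), 3 of 9 for PKIB (up to 0.270) and 3 of 9 for GNAI1 (up to 0.0886). The calls of GUCA2A, KRT20 and CD68 between the clones held in all 10 alternatives each. PLEKHA5 was also 0.37 higher in the control line in 3D than in 2D (adjusted p = 0.0365), a call lost in 8 of 12 alternatives.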

How the results depend on the processing

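Over 40 results and 448 alternatives, 427 were counted as unchanged. For tested results this meant the same direction and side of the threshold. For PDE3A where it carries no test it meant a shift smaller than the SD between arrays, whatever the sign. The small 3D minus 2D difference of PDE3A changed sign without some single arrays, induced 3D replicate 2 among them. Leaving out 1 array moved PDE3B in 3D between 0.471 and 0.689, and its call was lost in 4 of these. It also turned the sign of small values that passed nowhere, with ranges of -0.0083 to 0.175 for PDE4D in 3D, -0.110 to 0.035 for SLFN12 in 3D, -0.078 to 0.077 for PDE4D in 2D, -0.188 to 0.042 and -0.014 to 0.191 for PDE4B and PDE4D in 3D minus 2D, -0.161 to 0.013 for SLFN12 with the shRNA, -0.587 to 0.079 and -0.198 to 0.091 for PDE3B and PDE4B in C66, -0.042 to 0.174 for SLFN12 in C75, and -0.145 to 0.021 and -0.311 to 0.355 for PDE3A and PDE3B between the clones. SLFN12 in the control line passed with trend and robust moderation (-0.39, adjusted p = 0.0477) and without 2D control replicate 2 (-0.50, adjusted p = 0.0341). Same-numbered arrays correlated at -0.21 to 0.17, so the numbers do not pair them; with the replicate block PDE3B in 3D stayed at 0.57 (adjusted p = 0.0415), and 891 genes passed against 995. Counts of all genes moved by over 1.5 times as follows: 995 in 3D became 663 without induced replicate 3; 42 in 3D minus 2D became 7 with variance from 1 experiment and 11 to 70 without single arrays; 15 with the shRNA became 8 or 9; 250 in C66 became 89 to 120; 108 in C75 became 164 with variance from 1 experiment and 38 to 67 without single arrays; 506 between the clones became 259 to 270; 1361 in the control line became 824 with variance from 1 experiment and 875 or 905 without single arrays. The causes were not tested. The filter on dim genes left PDE4B alone of the 5. PDE6D lost its call in 4 of 12 alternatives in 3D and 3 of 12 in 2D, SLCO1C1 in 5 of 11 in 2D, and PPARGC1A in 11 of 18 in 3D minus 2D. In C66 GNAI1 lost it in 2 of 9, PCK1 in 6 of 9 and ABCC5 in 4 of 9.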
